A study of Mus musculus with 6 samples.

Results

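The 36 genes described here are markers and effector genes of monocytes and macrophages, listed by Ensembl identifier, and the rule that lists them uses no measured value. All 36 had a row among the 23770 gene rows of the deposited table. They were measured in mouse acute myeloid leukaemia (AML) cells that carry MLL-AF9, a fusion oncoprotein, on the C57BL/6 background and enriched for leukaemia stem cells, the fraction that propagates the disease. The 3 control samples were compared with 3 samples in which Kdm1a, a histone demethylase of transcriptional repressor complexes, had been knocked down (Kdm1a KD). Cells of both groups had been frozen, thawed, exposed to virus by spinoculation and cultured overnight. The 3 samples came from 2 animals, and which sample came from which is not labelled. The knockdown construct and its control are not named in the labels. Some samples share an animal, so each p-value below reflects sample-to-sample spread, which may be partly technical, and not spread between independent animals.

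Monocytes and macrophages are phagocytes of the myeloid lineage. They bind microbes and antibody-coated particles through scavenger, lipopolysaccharide and Fc receptors, signal from many of these through adaptors such as the products of Fcer1g and Tyrobp, and digest what they take up in lysosomes with lysozyme and cathepsins. Monocytes leave the marrow under CCR2 and depend on the growth factor receptor CSF1R, and their genes are opened by the transcription factor PU.1, encoded by Spi1. MLL-AF9 leukaemia cells are blocked in myeloid differentiation, and the series asks what losing KDM1A does to the genes they express.

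Regulatory sequence is shown for some members. Itgam is an integrin gene whose groups overlapped, and the groups of Fcgr4 and F13a1 (1 of its 2 windows) did not overlap. Gpnmb and Lyz2 were high on the arrays numbered 1. A window of the 150 bases before the RefSeq start site (GRCm38.p6) is printed for each gene. Each is written 5′ to 3′ on the gene's strand, and capitals mark GAGGAA, the core of the PU.1 motif, or its reverse complement TTCCTC.
Itgam (chr7:128062490-128062639, plus strand): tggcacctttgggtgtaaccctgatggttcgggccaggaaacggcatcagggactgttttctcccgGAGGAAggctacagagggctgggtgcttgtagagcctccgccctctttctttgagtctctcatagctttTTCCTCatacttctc
Fcgr4 (chr1:171018776-171018925, plus strand): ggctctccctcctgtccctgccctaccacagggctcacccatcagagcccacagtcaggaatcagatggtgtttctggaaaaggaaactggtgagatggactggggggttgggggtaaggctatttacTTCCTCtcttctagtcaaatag
F13a1 (chr13:37050245-37050394, minus strand): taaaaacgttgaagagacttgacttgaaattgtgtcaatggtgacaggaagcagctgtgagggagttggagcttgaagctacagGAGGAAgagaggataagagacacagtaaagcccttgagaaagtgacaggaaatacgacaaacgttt
Gpnmb (chr6:49036368-49036517, plus strand): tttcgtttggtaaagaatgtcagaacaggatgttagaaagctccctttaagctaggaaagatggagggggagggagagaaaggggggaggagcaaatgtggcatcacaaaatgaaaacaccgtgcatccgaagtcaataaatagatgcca
Lyz2 (chr10:117282273-117282422, minus strand): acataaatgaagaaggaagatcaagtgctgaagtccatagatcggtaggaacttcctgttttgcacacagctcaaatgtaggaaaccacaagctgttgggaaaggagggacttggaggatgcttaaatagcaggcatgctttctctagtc
Such a window was at hand for 27 of the 36 genes, and 9 of these 27 held GAGGAA on either strand in at least 1 window, against 14.5% of 32851 promoter windows of the same length over all genes. Some genes have several windows, so that 10 of the members' 31 windows held it. The F13a1 window not printed did not hold it, and no window was at hand for C1qa or Msr1. The printed windows were picked and do not stand for the 27 genes. The E-box CACGTG occurred in 1 of the 27 genes (4.30% of all windows), the M-box CATGTG in 1 (7.15%), and the AP-1 motif TGANTCA in 4 (4.24%). The motifs were searched on both strands, and a match describes the letters only.

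The knockdown was checked first on probesets, the exon-level features of the same arrays that the platform annotation names. Kdm1a, listed there under its older symbol Aof2, had 23 probesets, and their median log2 value was 8.61, 8.94 and 8.74 in the control and 6.30, 6.15 and 6.15 in the knockdown samples. The groups lay far apart, at 8.76 ± 0.164 (SD, n = 3) and 6.20 ± 0.0844 (SD, n = 3). Kdm1a fell, at -2.56 relative to control on the log2 scale (SE 0.180), which is 16.9% of control (limma, adjusted p = 0.00363 over 18916 symbols). The array medians of the gene table were alike, from 5.12 to 5.26, but the arrays numbered 1 of both groups stood apart from the other 4 in the genes described here. The results that rest on them are therefore also given without them.

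None of the 36 monocyte and macrophage genes changed in the knockdown samples at an adjusted p of 0.05 (limma over all 23770 rows, where 0.00421% of rows passed). The smallest adjusted p among them was 0.904. At an unadjusted p under 0.05 stood 2 with lower values, F13a1 and Fcgr4 (3.53% of all rows), and 1 with a higher value, C1qa (1.75% of all rows). The same 3 were those whose groups did not overlap, 2 lower (6.07% of all rows) and 1 higher (4.5% of all rows). With 1 array left out these counts ran from 2 to 11 lower and from 1 to 5 higher. Smaller groups separate more easily, and the share of all rows was not counted for those runs. On probeset medians the counts were 2 lower (6.04% of symbols) and 0 higher (4% of symbols). Values were lower on average in 27 of the 36, against 54% of all rows, with a median log2 difference of -0.12, against -0.02 over all rows. On probeset medians, the 7 neutrophil genes had a median difference of -0.33 (5 of 7 lower) and the 3 mast cell and basophil genes of -0.13 (3 of 3 lower), and their part in this result was not tested. After quantile normalization of the deposited values 20 were lower and the median was -0.01. The median was -0.04 without control replicate 1 and -0.26 without control replicate 2. Among the 4 arrays not numbered 1, 14 members had non-overlapping groups with lower values (23.6% of all rows) and 6 with higher values (18.2% of all rows). The limma fit to those 4 put 7 lower members (5.61% of all rows) and 2 higher ones (2.92% of all rows) at an unadjusted p under 0.05, again with none passing after adjustment. In bulk samples, fewer cells of a type and less RNA per cell cannot be told apart.

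**Figure D1:**
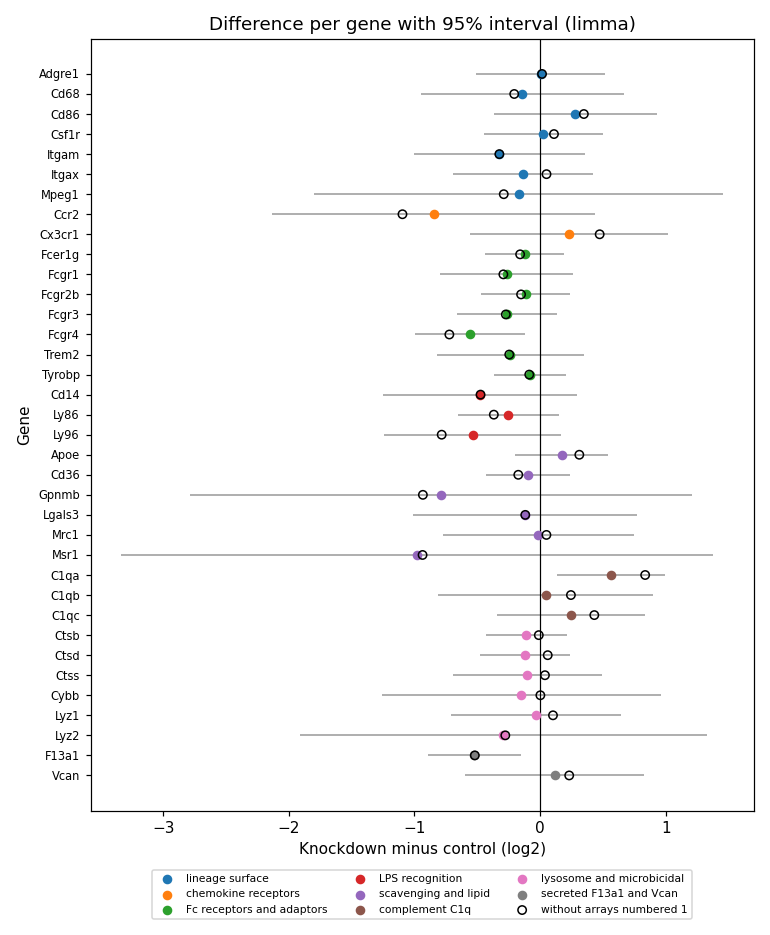
Knockdown minus control difference on the log2 scale for each of the 36 genes, with limma's 95% interval, coloured by role (the lineage surface colour includes Cd68 and Mpeg1, the Fc receptor colour Trem2); open circles give the difference over the 4 arrays not numbered 1. The intervals of F13a1, Fcgr4 and C1qa leave out 0, and those of Msr1 and Gpnmb are the widest.

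The 7 lineage markers, 5 of the cell surface and 2 of lysosomes and phagosomes (Cd68 and Mpeg1), held no gene that passed the test. Csf1r (ENSMUSG00000024621), the receptor for the growth factor of macrophages, measured 6.58, 5.97 and 6.02 in control and 6.44, 6.04 and 6.18 in knockdown samples, a difference of 0.03 with a 95% interval of -0.45 to 0.50. Adgre1, which encodes the F4/80 antigen, measured 7.35, 7.81 and 7.81 against 7.33, 7.61 and 8.04, and its means were equal to 2 decimals at 7.66. For both genes the groups overlapped.

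Itgam (ENSMUSG00000030786), the CD11b integrin chain, measured 7.99, 7.24 and 7.23 in control and 7.67, 6.80 and 7.02 in knockdown samples. Within the arrays numbered 1 and among the other 4 the knockdown values were the lower ones, with differences of -0.32 in each case, but the groups overlapped (difference -0.32, SE 0.291, limma adjusted p = 0.940). It was -0.07 with control replicate 1 left out, -0.14 with knockdown replicate 2 left out and -0.58 with knockdown replicate 1 left out. Cd68, a glycoprotein of macrophage lysosomes, Itgax, the CD11c integrin chain, and Mpeg1, a pore-forming protein of phagosomes, differed by -0.14, -0.14 and -0.17. Their groups overlapped. Cd86, a costimulatory ligand for T cells, measured 4.30, 3.67 and 3.36 in control and 4.45, 3.81 and 3.92 in knockdown samples, with overlap (difference 0.28, SE 0.277, limma adjusted p = 0.940). Among these 7 genes 4 had lower means with all arrays, 3 without the arrays numbered 1, and 6 after median centring, where Csf1r and Adgre1 turned to -0.0085 and -0.03.

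The chemokine receptor genes went apart. Ccr2 (ENSMUSG00000049103), which draws monocytes from the marrow, measured 9.06, 7.75 and 8.25 in control and 8.72, 6.73 and 7.08 in knockdown samples. The high array of each group was the one numbered 1, and the other knockdown arrays lay below all 3 controls. The difference of -0.85 (SE 0.548) corresponds to 55.7% of the control level and did not pass (limma, adjusted p = 0.929). It was -0.35 between the arrays numbered 1 and -1.10 among the other 4, where the groups did not overlap (limma, unadjusted p = 0.00372, adjusted p = 0.493). With knockdown replicate 1 left out it was -1.45, with control replicate 1 left out -0.49 and with knockdown replicate 2 left out -0.46.

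Cx3cr1, the receptor of patrolling monocytes for fractalkine, measured 7.18, 5.90 and 6.10 in control and 6.92, 6.58 and 6.37 in knockdown samples. Its difference was 0.23 (SE 0.336, limma adjusted p = 0.952), and -0.26 between the arrays numbered 1 but 0.47 among the others (limma, unadjusted p = 0.0351, adjusted p = 0.555). The difference in direction between the receptors was not tested.

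All 7 genes of the Fc receptors, their adaptors and Trem2, a receptor that shares the Tyrobp adaptor, had lower means in the knockdown, with differences from -0.56 to -0.08, and 5 of 7 after quantile normalization, where Fcgr2b and Tyrobp turned to 0.02 and 0.0032. Fcgr2b was also higher on probeset medians, by 0.05. Fcgr4 (ENSMUSG00000059089), an activating receptor for IgG, measured 6.81, 7.11 and 7.48 in control and 6.58, 6.47 and 6.68 in knockdown samples. Every knockdown array lay below every control. The difference was -0.56 (SE 0.187), or 67.8% of control, and did not pass over all rows (limma, unadjusted p = 0.0191, adjusted p = 0.904). It was -0.23 between the arrays numbered 1 and -0.72 among the other 4.

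Fcgr3, a further activating IgG receptor, measured 9.56, 9.72 and 9.89 against 9.31, 9.31 and 9.75, a difference of -0.26 with overlapping groups (SE 0.171, limma adjusted p = 0.930). Fcgr1, the high-affinity IgG receptor, measured 5.60, 4.93 and 5.37 against 5.38, 4.91 and 4.80, and its difference of -0.27 (SE 0.226, limma adjusted p = 0.936) also came with overlap. Fcgr2b, the inhibitory receptor, differed by -0.11. The low-affinity receptor genes are close relatives, and whether their probes share targets is not stated. The adaptor gene Tyrobp lay between 11.27 and 11.50 on all 6 arrays and differed by -0.08. The other adaptor gene, Fcer1g, lay between 10.34 and 10.70 and differed by -0.12. Trem2, which binds lipids, measured 6.39, 5.74 and 5.91 against 6.17, 5.78 and 5.38, a difference of -0.24 with overlap.

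The 3 genes for recognition of bacterial lipopolysaccharide had lower means in the knockdown with the deposited values, after quantile normalization and after median centring, and none passed. Ly96 (ENSMUSG00000025779), which encodes the MD-2 chain of the TLR4 receptor, measured 6.33, 5.96 and 6.41 in control and 6.28, 5.07 and 5.73 in knockdown samples. Knockdown replicate 1 lay within the controls and the other knockdown arrays below them (difference -0.54, SE 0.301, limma adjusted p = 0.929). The Ly96 difference was -0.23 with knockdown replicate 2 left out and -0.83 with knockdown replicate 1 left out. Cd14 (ENSMUSG00000051439), the co-receptor that hands lipopolysaccharide to TLR4, measured 6.80, 5.86 and 5.98 against 6.32, 5.35 and 5.55.

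Cd14 was thus lower in the knockdown between the arrays numbered 1 (-0.49) and among the other 4 (-0.47), while the groups overlapped over all arrays (difference -0.48, SE 0.329, limma adjusted p = 0.932). The Cd14 difference was -0.18 with control replicate 1 left out, -0.28 with knockdown replicate 2 left out and -0.77 with knockdown replicate 1 left out. Ly86, encoding the MD-1 partner of the TLR relative RP105, measured 8.37, 8.51 and 8.89 against 8.36, 8.18 and 8.49, a difference of -0.25 with overlap. Without the arrays numbered 1 the differences of Ly96, Cd14 and Ly86 were -0.78, -0.47 and -0.37, each with groups that did not overlap, as in 23.6% of all rows in that direction.

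Among the scavenging and lipid-handling genes, the 2 with the largest differences were also those with the largest spread. Msr1 (ENSMUSG00000025044), the class A scavenger receptor of macrophages, measured 8.80, 5.80 and 5.97 in control and 7.73, 5.17 and 4.74 in knockdown samples. Both arrays numbered 1 stood far above the rest, and within either set of arrays the knockdown was lower, at -1.07 between the arrays numbered 1 and -0.94 among the others. Over all arrays the difference of -0.98 (SE 1.01) corresponds to 50.7% of the control level, with a 95% interval of -3.34 to 1.38 on the log2 scale (limma, adjusted p = 0.940). With control replicate 1 left out it was -0.0089, with knockdown replicate 3 left out -0.41 and with knockdown replicate 1 left out -1.91.

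Gpnmb (ENSMUSG00000029816), a transmembrane glycoprotein of phagocytes that handle lipid and debris, followed the same order, with 9.18, 6.92 and 7.07 in control and 8.68, 6.09 and 6.03 in knockdown samples. Its difference was -0.79 (SE 0.851, limma adjusted p = 0.941), -0.50 between the arrays numbered 1 and -0.93 among the others. With control replicate 1 left out it was -0.06, and with knockdown replicate 1 left out -1.66. Without the arrays numbered 1, Msr1 and Gpnmb had unadjusted p of 0.00411 and 0.00125 in limma and adjusted p of 0.493 and 0.448, so neither passed there either. Lgals3, encoding galectin-3, differed by -0.12, Mrc1, the mannose receptor, by -0.01, Cd36, a fatty acid and oxidised lipoprotein receptor, by -0.10 and Apoe, the lipid-carrying apolipoprotein, by 0.17. In all, 5 of these 6 genes had lower means, and 4 of 6 after quantile normalization. Cd36 lay between 2.71 and 3.11 and Mrc1 between 3.52 and 4.53, and with Cd86 they were the 3 members in the lowest 25% of rows.

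**Figure D2:**
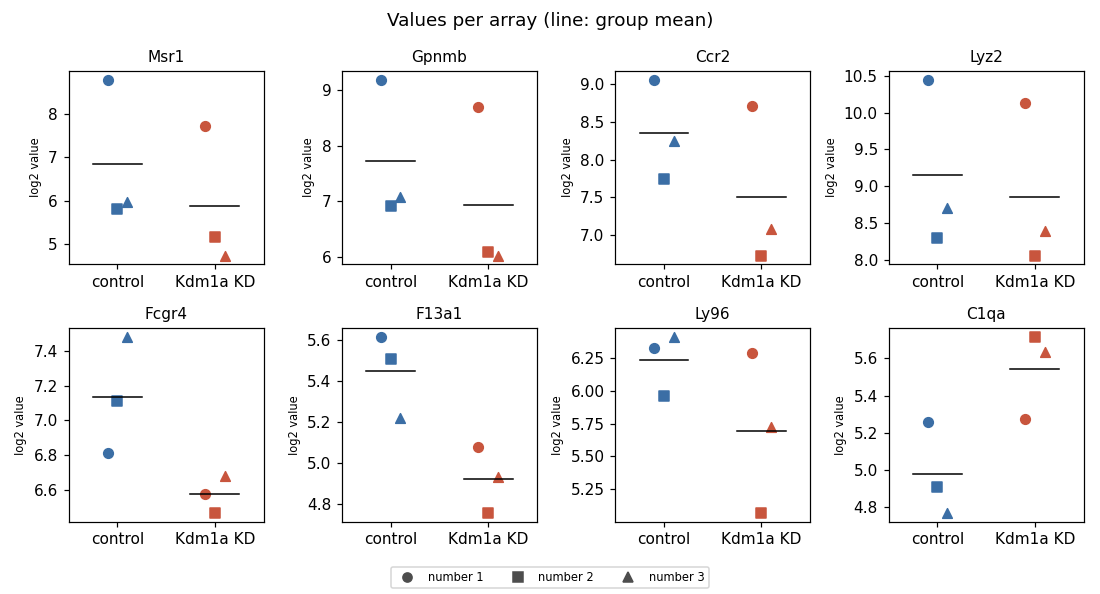
Log2 value on each array (points, shaped by replicate number) and group mean (lines) for 8 genes; each panel has its own axis, which does not start at 0. Circles, the arrays numbered 1, stand above the other arrays of their group for Msr1, Gpnmb, Ccr2 and Lyz2, and by less for F13a1. Fcgr4 and F13a1 are lower and C1qa is higher on every knockdown array than on every control.

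The C1q genes, which encode the 3 chains of the first complement component and are made by macrophages, had higher means in the knockdown. C1qa (ENSMUSG00000036887) measured 5.26, 4.91 and 4.77 in control and 5.28, 5.71 and 5.63 in knockdown samples. The groups did not overlap, but by only 0.02 between control and knockdown replicate 1. The difference of 0.56 (SE 0.184) corresponds to 148% of the control level and did not pass over all rows (limma, unadjusted p = 0.0175, adjusted p = 0.904). On probesets, which are 3 for this gene, all 3 were higher by mean, yet the difference of their median shrank to 0.17.

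C1qc measured 4.93, 3.91 and 4.44 against 4.80, 4.56 and 4.66, and C1qb 6.16, 4.78 and 5.17 against 5.80, 5.42 and 5.02. Their differences of 0.25 and 0.04 lay within the spread of the groups, and that of C1qb was -0.10 on probeset medians. Among the 4 arrays not numbered 1 the differences of C1qa, C1qb and C1qc were 0.84, 0.25 and 0.43.

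None of the lysosomal and microbicidal genes passed the test. Lyz2 (ENSMUSG00000069516), the lysozyme of myeloid cells, measured 10.45, 8.30 and 8.71 in control and 10.13, 8.06 and 8.39 in knockdown samples. The arrays numbered 1 were the high ones of both groups, and the difference of -0.29 (SE 0.690, limma adjusted p = 0.974) had a 95% interval of -1.91 to 1.33. Lyz1, its neighbour and near copy, measured 6.90, 5.92 and 6.14 against 6.59, 6.38 and 5.89, and whether probes of these lysozyme genes share targets is not stated.

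Cybb, the catalytic chain of the phagocyte oxidase, had means of 8.42 in control and 8.27 in knockdown samples. Its arrays numbered 1 stood at 9.43 and 8.98, and over the other 4 arrays the difference was 0.0021. Ctss, Ctsb and Ctsd, lysosomal cathepsins, differed by -0.10, -0.11 and -0.12. All 6 genes had lower means with all arrays, but 4 of the 6 were higher after quantile normalization (Lyz1, Ctss, Ctsb and Ctsd) and 4 were higher without the arrays numbered 1 (Lyz1, Cybb, Ctss and Ctsd).

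Of the genes for secreted products, F13a1 had a lower mean in the knockdown and Vcan a higher one, and the difference between them was not tested. F13a1 (ENSMUSG00000039109), the coagulation factor XIII A chain made by monocytes and macrophages, measured 5.61, 5.51 and 5.22 in control and 5.08, 4.75 and 4.93 in knockdown samples. The groups did not overlap, so that both arrays numbered 1 could not lie above all others. They were the highest of their group, at 0.25 and 0.24 relative to the other control and knockdown arrays. The difference was -0.53 (SE 0.158), or 69.5% of control, with the smallest unadjusted p of the 36 genes, and did not pass over all rows (limma, unadjusted p = 0.0119, adjusted p = 0.904). Among the 4 arrays not numbered 1 it was -0.52, and of its 17 probesets 15 were lower. Vcan, a matrix proteoglycan of classical monocytes, measured 5.82, 6.17 and 6.60 against 5.71, 6.52 and 6.71, a difference of 0.12 (SE 0.303, limma adjusted p = 0.978) that was -0.07 with control replicate 1 left out and -0.08 with knockdown replicate 3 left out.

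The direction was also counted over the probesets of a gene, although these share its RNA and arrays with the gene row and are not replicates. The share over all probesets was not counted. All 10 probesets of Msr1, all 5 of Cd14, all 5 of Fcgr4, all 4 of Ccr2 and 14 of 15 of Gpnmb had lower means in the knockdown. For Itgam 33 of 40 were lower. By contrast 16 of 32 were lower for Mrc1, 12 of 31 for Csf1r and 11 of 23 for Vcan.

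**Figure D3:**
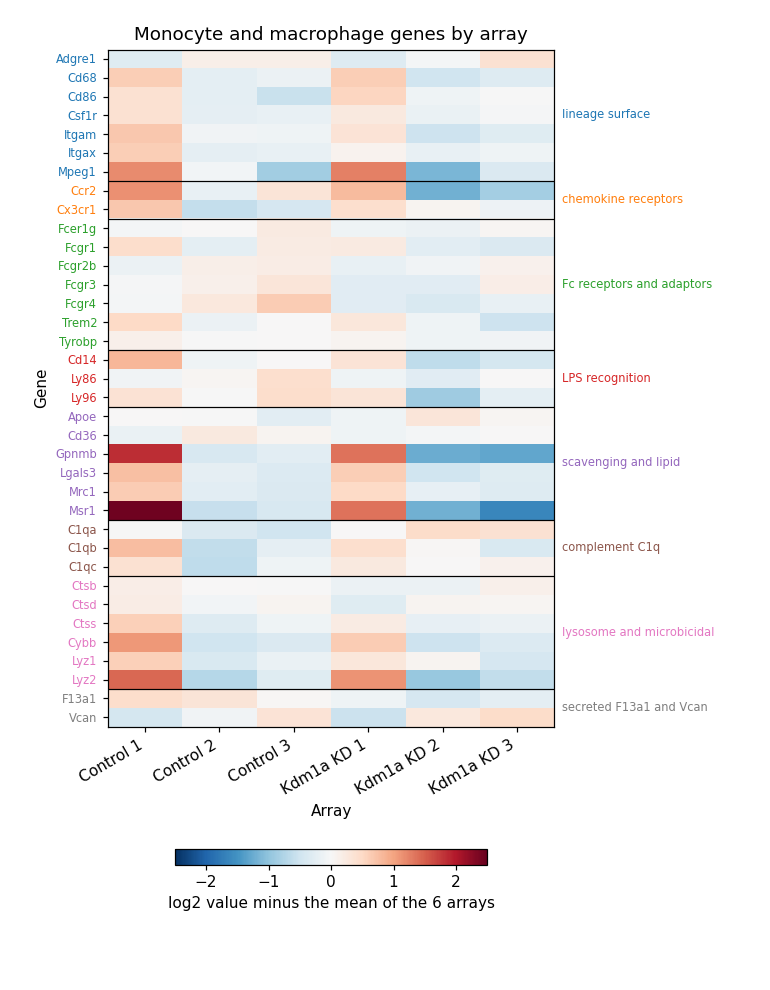
Each gene's log2 value minus its mean over the 6 arrays, with genes in rows grouped by role and arrays in columns (red above, blue below the mean). Control 1 and Kdm1a KD 1 are red for most genes, most strongly for Msr1 and Gpnmb. Adgre1, Fcgr2b, Fcgr3, Fcgr4, Fcer1g, Ly86, Cd36 and Vcan lie below their mean on both.

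The arrays numbered 1 of both groups shared high values for most of these genes. In 22 of the 36 genes both arrays numbered 1 lay above all 4 others, against 8.65% of all rows, and in 4, Adgre1, Fcgr2b, Cd36 and Vcan, they lay below all others, against 19.4% of all rows. This is a description of which arrays were high, and the labels give no meaning to the number. Control replicate 1 had the highest value of the 6 arrays for 23 of the 36 genes. The median deviation of the 36 genes from the mean of all arrays was 0.43 in control replicate 1 and 0.24 in knockdown replicate 1, and between -0.20 and -0.10 in the other 4.

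Msr1 led, with control replicate 1 at 7.51 times the level of the other controls (2.91 on the log2 scale) and knockdown replicate 1 at 6.87 times the level of the other knockdown samples. Gpnmb followed with 4.55-fold and 6.15-fold, Lyz2 with 3.85-fold and 3.73-fold, and Mpeg1 with 3.14-fold and 4.02-fold. Ccr2 was 2.09-fold and 3.52-fold higher there, Cybb 2.86-fold and 2.09-fold, and Lgals3 2.05-fold and 2.04-fold. These 7 genes exceeded 1 log2 unit in both groups, against 0.517% of all rows.

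By role, both arrays numbered 1 were highest in 6 of 7 lineage markers, 2 of 2 chemokine receptors, 4 of 6 scavenging genes, 4 of 6 lysosomal genes and 2 of 3 C1q genes. They were so in 3 of the 7 genes of Fc receptors, adaptors and Trem2, namely Fcgr1, Trem2 and Tyrobp, in 1 of 3 lipopolysaccharide genes, Cd14, and in neither F13a1 nor Vcan. For F13a1, Fcgr4 and C1qa this could not occur, because their control and knockdown groups did not overlap. Adgre1 went against the other lineage markers, with its arrays numbered 1 at -0.46 and -0.49 relative to the other arrays of the control and knockdown groups. Vcan stood at -0.56 and -0.91 there.

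**Figure D4:**
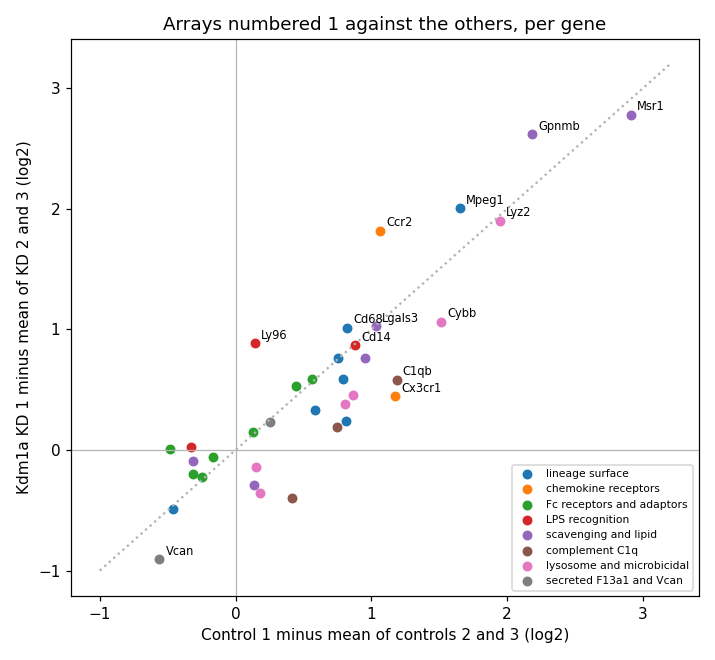
For each gene, control replicate 1 minus the mean of the other controls (x axis) against knockdown replicate 1 minus the mean of the other knockdown samples (y axis), both log2, coloured by role; the dotted line marks equal values. Most genes lie in the upper right, with Msr1 and Gpnmb farthest out and Vcan at the lower left.

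Marker genes of other cell types were followed on probeset medians per symbol. All 7 neutrophil genes listed (S100a8, S100a9, Ltf, Camp, Ngp, Lcn2 and Retnlg) were above all 4 other arrays on both arrays numbered 1, against 8.28% of all symbols. On the same scale 17 of the 36 members were above and 4 below all others, against 19.2% of symbols below. Ltf, the lactoferrin of secondary granules, measured 7.74, 4.59 and 4.52 in control and 7.65, 4.88 and 4.67 in knockdown samples. The mean log2 level of the neutrophil list was 9.45, 7.80 and 7.93 in control and 9.33, 7.32 and 7.69 in knockdown samples, so it was high on the same arrays as Msr1 and Lyz2.

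The 3 mast cell and basophil genes (Cpa3, Mcpt8 and Ms4a2) did likewise, with list means of 6.76, 5.82 and 5.70 against 6.77, 5.20 and 5.72. The part of the neutrophil, mast cell and basophil genes in the result was not tested. The promyelocyte genes at hand, Mpo, Prtn3 and Ctsg, had list means of 9.60, 10.03 and 9.96 in control and 9.93, 10.04 and 10.02 in knockdown samples. Relative to the other arrays of their group, the arrays numbered 1 of control and knockdown had list medians of -0.11 and 0.15, with Mpo at -1.34 and -0.62, Prtn3 at -0.11 and 0.15 and Ctsg at 0.27 and 0.18. List means of the B, T and NK cell and megakaryocyte genes and the value of Klf1, the only 1 of 4 erythroid genes matched, stayed between 2.81 and 5.17 on all arrays, and list means of the dendritic genes between 4.57 and 5.09. The median knockdown minus control difference of the 4 T cell genes was 0.41, with 3 of 4 higher and 1 of them, Cd3d, without overlap (4% of symbols in that direction). Of the promyelocyte genes, Prtn3 was lower without overlap, at -0.20 (6.04% of symbols in that direction). Mpo and Ctsg had higher means, with overlap.

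**Figure D5:**
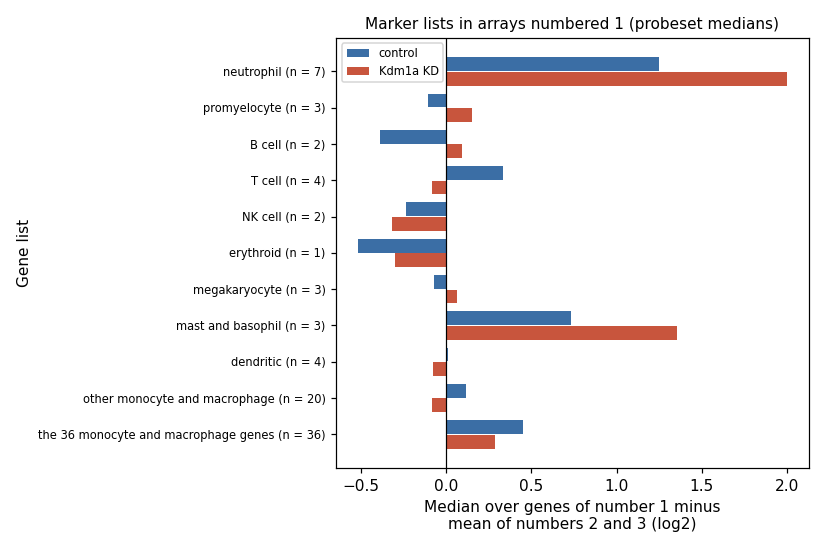
Median over the genes of each list of the replicate 1 value minus the mean of replicates 2 and 3, in log2 units, for the control (blue) and knockdown (red) groups; n is the number of genes. The neutrophil list shows the longest bars, followed by the mast cell and basophil list, while the medians of the 20 other monocyte and macrophage genes, which went both ways, are 0.12 and -0.08.

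Further genes of the lineage came from a list of 22, of which 20 were matched on the probesets. None passed the test (0.00529% of symbols did), and 1 stood at an unadjusted p under 0.05 in each direction (3.29% of symbols lower and 1.77% higher). The lower one was Clec4n, the dectin-2 receptor for fungal mannans, at 6.71, 5.84 and 5.87 in control and 5.74, 5.06 and 4.89 in knockdown samples (difference -0.91, SE 0.307, limma adjusted p = 0.959). Its groups did not overlap. The higher one was Irf8, a transcription factor of monocyte fate, at 6.54, 6.56 and 6.21 against 7.08, 6.81 and 6.79 (difference 0.46, SE 0.192, limma adjusted p = 0.959), again without overlap. In all, 2 of the 20 were lower without overlap, Clec4n and Sirpa (6.04% of symbols). Another 2 were higher without overlap, Irf8 and Il34 (4% of symbols).

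Of these 20 genes, 14 had lower means in the knockdown, with a median of -0.09, against -0.04 over all symbols. Spi1, encoding PU.1, measured 7.90, 8.34 and 8.17 in control and 7.65, 7.85 and 8.05 in knockdown samples, with overlap. On the arrays numbered 1 this list was mixed, 5 above and 3 below all others, with Ms4a6c at -1.88 and -1.82 relative to the other arrays of the control and knockdown groups and Csf2ra, a receptor chain for GM-CSF, at -0.79 and -1.11. Lilrb4a, an inhibitory receptor, stood at 1.18 and 1.31 there, Clec4n at 0.85 and 0.77, and Clec7a, the dectin-1 receptor, at 0.62 and 0.55.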

How the data were processed

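For 6 arrays the authors deposited log2 values by gene and, in a second table, log2 values of 267824 probesets. RMA is named, without a version, in the submitters' processing notes. The log2 scale was read from the range of the values. The genome build and probe-to-gene mapping are not stated in the labels or file headers. RNA had been amplified with a whole-transcriptome kit before labelling, per the labels' protocols; amplification and RMA can compress differences. There are no detection calls, and precision is limited by having 6 arrays.

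Columns were matched to samples by description, groups and replicate numbers by title. The 36 members were matched by Ensembl identifier. Each gene row was set beside the median of the probesets of its symbol, from the platform annotation with symbols updated through RefSeq synonyms: 242247 probesets have 1 symbol, 2077 several and 23500 none, and all 36 members were found (Adgre1 as Emr1). The gap between a gene row and its probeset median on any array was at most 1.37 (Lyz1). Their correlation over the 6 arrays ran from -0.23 (Tyrobp) to 0.996 (Gpnmb). It was 0.42 for Apoe, 0.45 for C1qb and 0.60 for Ly96, so their patterns across arrays depend on the summary used.

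The groups were compared in R 4.3.3 using the limma package, version 3.58.1 (lmFit and eBayes without covariates, two-sided, Benjamini-Hochberg over all rows of the table used). The procedure was tested on simulated data with independent noise, which lacked the shared deviation of the arrays numbered 1. An exact permutation test of 3 against 3 cannot give a p under 0.1. Full values were given by a rule that took the 12 largest absolute differences and at least 1 member per role; a few more members, and the genes Clec4n, Irf8, Spi1, Ms4a6c and Csf2ra of the further list, were added after their values were seen. Alternatives were quantile normalization, median centring, replicate number as a block or random effect, a filter on low rows, array weights, an intensity trend with a robust prior, removal of duplicate rows, probeset medians, a looser threshold and leaving out each array; leaving out both arrays numbered 1 and a block of number 1 were added after seeing the data. The members and lists were chosen with earlier results of these data known.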

Additional observations from a re-analysis of the deposited data

How the results depend on the processing

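None of the 36 genes passed at an adjusted p of 0.05 in limma in any alternative run, nor at 0.1; at an unadjusted p under 0.05 there were 3. With 1 array left out, the members' median ranged from -0.26 to -0.04. At an unadjusted p under 0.05 in limma, 1 to 6 genes were lower (2.04% to 6.66% of all rows across the runs). In the other direction 0 to 3 were higher (1.23% to 2.66% of all rows). The 6 lower came without knockdown replicate 1 (3.57% of rows) and the 3 higher without control replicate 1 (2.66% of rows). Signs turned after quantile normalization for Lyz1 (0.035), Fcgr2b (0.023), Ctss (0.039), Tyrobp (0.0032), Lgals3 (0.021), Ctsb (0.026) and Ctsd (0.022). Signs turned after median centring for Csf1r (-0.0085) and Adgre1 (-0.031). Signs turned with array weights for Adgre1 (-0.085), Lyz1 (0.096), Mpeg1 (0.088), Cybb (0.035), Mrc1 (0.14), Vcan (-0.016) and Lgals3 (0.020). Signs turned on probeset medians for Fcgr2b (0.049), C1qb (-0.097) and Ctsb (0.023). Signs turned without both arrays numbered 1 for Lyz1 (0.10), Cybb (0.0021), Ctss (0.038), Mrc1 (0.050), Itgax (0.051) and Ctsd (0.061). Leaving out 1 array at a time gave both signs for Adgre1 (-0.19 to 0.17), C1qb (-0.25 to 0.44), C1qc (-0.012 to 0.50), Cd68 (-0.48 to 0.13), Csf1r (-0.085 to 0.22), Ctss (-0.30 to 0.17), Cx3cr1 (-0.015 to 0.62), Cybb (-0.50 to 0.36), Itgax (-0.28 to 0.13), Lgals3 (-0.46 to 0.22), Lyz1 (-0.23 to 0.25), Lyz2 (-0.93 to 0.36), Mpeg1 (-0.84 to 0.38), Mrc1 (-0.27 to 0.30) and Vcan (-0.082 to 0.42). Without a change of sign, Cd86 ranged from 0.073 to 0.54, Fcgr1 from -0.45 to -0.12 and Trem2 from -0.43 to -0.038. In all, 17 genes, with Cd86, Fcgr1 and Trem2 among them, kept their sign in the alternatives run for them. The filter on low rows left out Cd36 and Cd86. The cause of the sign changes was not tested. Deviations from the mean of each group were correlated between control and knockdown arrays. Same-numbered arrays gave r of 0.54, 0.081 and 0.25 across all rows, and 0.89, 0.58 and 0.77 across the members. Control 2 with knockdown 3 gave 0.28, and 0.85 across the members. Control 3 with knockdown 2 gave 0.12, and 0.63 across the members. The numbers 2 and 3 were thus not specific, and pairs of a number 1 array with another number gave negative r. The deviations within a group cancel out. Positive r at number 1 therefore brings, on balance, negative r for its other pairs and positive r among numbers 2 and 3. These signs are no separate result. The rule used all rows, so the numbers were not taken as pairs. Knockdown was lower in all 3 same-numbered differences for 16 members (20.9% of rows) and higher for 2 (12.7%). With the replicate block, 0 genes passed, the median was -0.12, and 9 lower (6.37% of rows) and 1 higher (2.73%) had an unadjusted p under 0.05, with a smallest adjusted p of 0.441 (Msr1, limma). Number 1 as a block gave 7 (6.01%) and 1 (2.5%), and leaving out both arrays numbered 1 gave 7 (5.61%) and 2 (2.92%). The median gap of the arrays numbered 1 was 0.52, and 0.62 after quantile normalization, 0.53 after centring and 0.40 on probeset medians. Without detection calls, signal over background is unknown.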
